A study of Mus musculus with 24 samples.

Results

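Egr1, Egr2, Egr3, Ier2, Ier3, Zfp36 and Myc are 7 immediate early genes outside the Fos and Jun families, picked by symbol from the 16233 genes of an RNA sequencing table of mouse fat. All 7 symbols were in the table, each as a single gene. The tissue was white adipose tissue from the groin (inguinal), which lies under the skin, of male C57BL6 mice aged 10 to 11 weeks. ZT counts hours from lights on. The ZT15 groups are exercised mice (RUN) and sham-exercised mice (SED) labelled as sampled early in the active phase, in the dark under a red lamp. The ZT3 groups are RUN and SED mice labelled as sampled early in the rest phase, with lights on. RUN mice had 1 hour of exercise, and SED mice spent the same hour on an artificial treadmill. No genetic change or drug is named for any group. There were 6 libraries in each group and 24 in all, named by time, treatment and a replicate number, as in ZT15_RUN_1. The replicate number serves as a name, and the main test did not use it as a pairing. The labels do not give the hour after the bout, nor do they say that each library is a separate mouse, so each p-value reflects variation among libraries, which may be partly technical.

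Immediate early genes are transcribed within minutes of a stimulus from factors already present in the cell, with no need for new protein. Kinase cascades such as ERK act on serum response factor and its ternary complex partners, which bind CArG boxes, and on CREB, which binds cAMP response elements. The proteins made are often short-lived regulators of later genes, and their mRNAs are often short-lived too. The EGR proteins are zinc finger activators, and EGR1 and EGR2 have been studied in the differentiation of fat cells. ZFP36, also called tristetraprolin, binds AU-rich elements in mRNAs and speeds their decay. MYC is a growth-linked transcription factor.

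Summed over the table, each library had between 18.5 and 34.7 M (mega) reads. All 10 adipocyte markers were measured, and their summed value per library lay between 17057 and 50927. Cd79a, a B cell receptor subunit, marked 3 libraries that stand apart in lymph node content. ZT15_SED_3 had a Cd79a value of 14.1, ZT15_SED_5 one of 54.6 and ZT3_RUN_4 one of 99.2, and the other 21 libraries had 1.33 or less. The summed value of the 20 lymphocyte markers reached 3150 in ZT3 RUN, and it lay between 71.3 and 191 in ZT15 RUN. Muscle markers also varied widely, with sums from 85.5 to 50823. In whole tissue, fewer cells of a type and less RNA per cell cannot be told apart.

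The sequence near the start of transcription, from a RefSeq promoter table, is shown for 3 of the 7 members, for the binding motifs it holds. Each window runs from 250 bases before the listed start to 50 after it on GRCm38.p6, and each is 5′ to 3′ on the strand of the gene. Capitals mark the CArG box in Egr2, the NF-kB consensus in Ier3, and the EGR motif, the ETS motif and the CArG box, in that order, in Zfp36. The Egr2 window is chr10:67537619-67537918 on the plus strand, the Ier3 window chr17:35821463-35821762 on the plus strand, and the Zfp36 window chr7:28379179-28379478 on the minus strand.
Egr2: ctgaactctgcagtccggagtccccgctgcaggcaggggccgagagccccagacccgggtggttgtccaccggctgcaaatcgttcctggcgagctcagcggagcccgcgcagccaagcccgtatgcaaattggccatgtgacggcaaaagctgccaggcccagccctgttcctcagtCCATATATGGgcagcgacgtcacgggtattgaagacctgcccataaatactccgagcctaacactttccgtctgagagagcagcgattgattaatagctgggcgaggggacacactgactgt
Ier3: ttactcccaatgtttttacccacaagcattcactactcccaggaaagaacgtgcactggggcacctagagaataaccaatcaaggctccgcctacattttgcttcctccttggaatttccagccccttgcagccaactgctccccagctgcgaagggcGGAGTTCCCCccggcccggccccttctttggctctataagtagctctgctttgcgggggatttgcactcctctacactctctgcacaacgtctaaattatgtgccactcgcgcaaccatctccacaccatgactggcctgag
Zfp36: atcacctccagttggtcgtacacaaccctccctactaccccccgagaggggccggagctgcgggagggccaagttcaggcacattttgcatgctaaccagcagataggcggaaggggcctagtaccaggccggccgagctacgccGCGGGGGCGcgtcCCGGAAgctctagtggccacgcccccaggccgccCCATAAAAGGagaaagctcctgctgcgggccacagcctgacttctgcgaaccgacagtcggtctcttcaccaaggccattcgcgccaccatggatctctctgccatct

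The CArG box lay 72 bases before the listed start in Egr2 and 58 bases before it in Zfp36, and it occurs in 1.63% of the 32851 windows of this length in the table. Egr2 also held 2 matches to TGACG, the core of a cAMP response element, which 20.8% of the windows hold. In Zfp36 the ETS motif CCGGAA lay 92 bases before the listed start (14.9% of windows) and the EGR motif GCGNGGGCG 105 bases before it (5.55% of windows). In Ier3 the NF-kB consensus lay 92 bases before the start, against 4.51% of windows with a match, and no CArG box was found. Matches were counted on both strands, and they describe these letters only. For Egr2 the table lists 5 starts, and the window used is the one whose start falls on that of the GENCODE transcript Egr2-201. The listed Zfp36 start lies 1025 bases inside the outermost annotated start of the gene.

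The 3′ untranslated region bears on Zfp36 and Ier3, because ZFP36 binds the letters TATTTAT in RNA form. Each line shows 30 bases with 2 matches in capitals, bases 174 to 203 of the 613-base region of Ier3-201 and bases 571 to 600 of the 774-base region of Zfp36-201 (GENCODE M21).
Ier3: ctaattaaTATTTATgTATTTATgtatatc
Zfp36: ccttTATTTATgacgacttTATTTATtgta
The whole region held 4 matches in Ier3 and 3 in Zfp36. Of regions within 25% of the same length, 17.5% held a match at the length of Ier3 and 20.3% at that of Zfp36. The regions of Egr1, Egr2, Egr3, Ier2 and Myc held 0 matches.

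Values are the deposited signal, in reads after scaling for library size. Set per kilobase of annotated exon, the mean over the 24 libraries was highest for Zfp36, at 18.0 per kb. It was 8.03 per kb for Ier2, 7.44 for Egr1, 5.25 for Myc, 2.80 for Egr2, 2.50 for Ier3 and 0.978 for Egr3. Egr3, the least abundant, rested on 10 to 529 reads per library, and Zfp36 on 921 to 3137. Zfp36 lies at chr7:28376784-28380253 on the minus strand of GRCm38, where the antisense gene Gm44710 overlaps it. Gm44710 is not listed in the table, and whether the counting used strand is not given in the sources used here. The others overlap no annotated gene. Egr2 lies at chr10:67535475-67542188 on the plus strand, Egr3 at chr14:70077203-70082614 on the plus strand, Ier2 at chr8:84661331-84662852 on the minus strand, Ier3 at chr17:35821684-35822923 on the plus strand and Myc at chr15:61985391-61990374 on the plus strand. Egr1 is on the plus strand of chromosome 18, and all 7 are annotated as protein coding.

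The group means had different orders in different members. Egr1 averaged 70.7 ± 56.5 in ZT3 SED, 25.4 ± 17.4 in ZT15 RUN, 23.8 ± 21.8 in ZT3 RUN and 13.4 ± 4.42 in ZT15 SED (SD, n = 6 each). Egr2 had the same order, and Egr3 and Ier2 also had their highest mean in ZT3 SED. Ier3, Zfp36 and Myc had their highest mean in ZT15 RUN. Neighbouring groups in each of these orders overlapped in range.

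**Figure D1:**
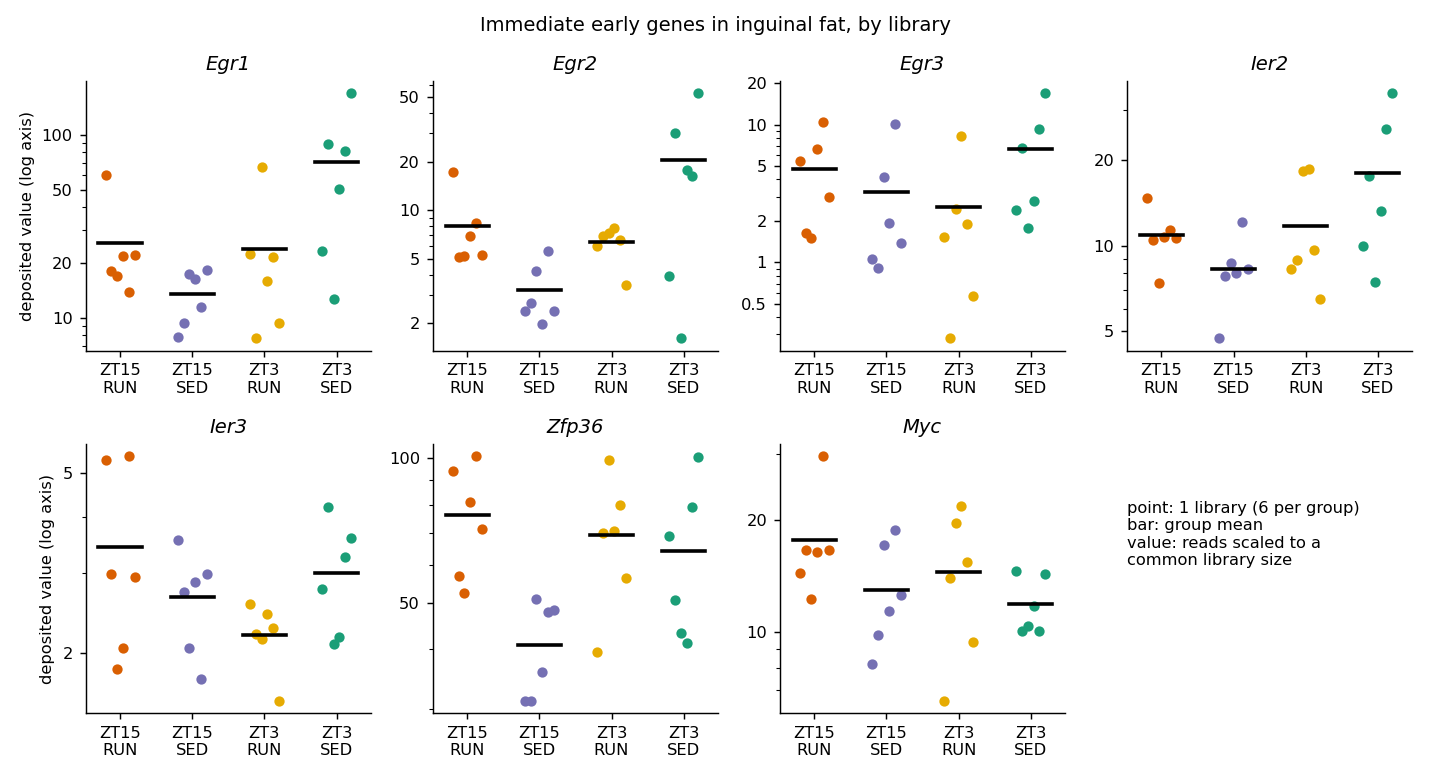
Deposited value of each of the 7 genes (vertical log axis) in every library, with groups from left to right ZT15 RUN, ZT15 SED, ZT3 RUN and ZT3 SED. Points are libraries, 6 per group, and bars are group means. In Zfp36 the ZT15 RUN libraries, from 52.4 to 101, all lie above the ZT15 SED libraries, from 31.2 to 50.9. In Egr1 the ZT3 SED libraries spread from 12.7 to 168.

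Exercise at ZT15 was compared first. Zfp36 ranged from 52.4 to 101 in ZT15 RUN with a median of 76.2, against 31.2 to 50.9 in ZT15 SED with a median of 41.9. The groups did not overlap, in 1 of the 7 members, and 1.0% of all genes were higher without overlap in this comparison. The log2 change of Zfp36 was 0.87 ± 0.23 (SE), a 1.83-fold difference with a 95% interval of 1.31 to 2.54. Its adjusted p was 0.0819 in limma, over the threshold of 0.05, and 0.0759 in edgeR. DESeq2 gave an adjusted p of 0.00975, where 2.2% of the genes with an adjusted p were called higher. Within each run of 8 title numbers, which holds 2 libraries of every group, the change was 0.80, 1.20 and 0.60, and with the runs as a term limma gave an adjusted p of 0.0491. Among marker lists in the same comparison, the change was above 0 in 0 of 20 lymphocyte markers (median -1.57), 16 of 16 skeletal muscle markers (median 0.80), 8 of 9 Schwann cell and nerve markers (median 0.35) and 10 of 10 endothelial markers (median 0.19). It was also above 0 in 8 of 10 fibroblast and preadipocyte markers (median 0.22), 7 of 7 smooth muscle markers (median 0.21) and 9 of 10 adipocyte markers (median 0.20). For macrophage and dendritic cell markers it was above 0 in 8 of 14 (median 0.02). For neutrophil and mast cell markers it was above 0 in 3 of 10 (median -0.04), and for epithelial markers in 2 of 5 (median -0.12). None of these markers passed in limma, and the summed values overlapped between the groups. With lymphocyte and muscle scores as terms the Zfp36 change was 0.93 ± 0.24 (adjusted p = 0.0689, limma), and the part of the other lists was not tested.

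The EGR genes had wide ranges at this time. Egr2, which also directs myelination in Schwann cells, ranged from 5.17 to 17.2 in ZT15 RUN with a median of 6.11, against 1.98 to 5.57 in ZT15 SED with a median of 2.52. Only the highest SED library, ZT15_SED_5, reached into the RUN range. Without ZT15_SED_5 and ZT15_SED_3, both rich in Cd79a, the SED range was 1.98 to 2.67 (n = 4). The log2 change of Egr2 with all libraries was 1.04 ± 0.50 (adjusted p = 0.395, limma). Egr1, the most widely studied of the family, ranged from 13.8 to 60.5 in ZT15 RUN with a median of 19.9, against 7.85 to 18.3 in ZT15 SED with a median of 13.8. All 6 RUN libraries lay above the SED mean, and the groups overlapped. The log2 change of Egr1 was 0.75 ± 0.52 (adjusted p = 0.575, limma), and it was 0.47 without ZT15_RUN_1. Egr3, which is needed for muscle spindles, ranged from 1.49 to 10.5 in ZT15 RUN with a median of 4.24, against 0.911 to 10.1 in ZT15 SED with a median of 1.66. The SED range of Egr3 covered nearly all of the RUN range, and its log2 change was 0.54 ± 0.54 (adjusted p = 0.735, limma). With 1 library left out it lay between 0.30 (without ZT15_RUN_5) and 0.88 (without ZT15_SED_5), and with lymphocyte and muscle scores as terms it was 1.12 ± 0.44 (adjusted p = 0.252, limma).

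The remaining members overlapped throughout. Myc ranged from 12.3 to 29.7 in ZT15 RUN with a median of 16.5, against 8.22 to 18.8 in ZT15 SED with a median of 12.0. Its log2 change was 0.41 ± 0.24 (adjusted p = 0.491, limma). Ier2, a nuclear protein of the early growth response, ranged from 7.37 to 14.7 in ZT15 RUN with a median of 10.7, against 4.72 to 12.1 in ZT15 SED with a median of 8.17. Its log2 change was 0.37 ± 0.30. Ier3, also called IEX-1 and known for effects on cell survival, ranged from 1.84 to 5.47 in ZT15 RUN with a median of 2.96, against 1.75 to 3.57 in ZT15 SED with a median of 2.80. In Ier3 ZT15_RUN_5 and ZT15_RUN_1 stood above every SED library and the other RUN libraries lay among them (log2 change 0.22 ± 0.19).

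Of the 7 members, 0 passed the adjusted threshold at ZT15 in limma, against 0.641% of the 16233 genes, 0 passed in edgeR, against 0.579% of genes called higher, and 1 passed in DESeq2, Zfp36. At an unadjusted p under 0.05 the limma count was 2 of 7, Zfp36 and Egr2, against 12.7% of all genes. The limma log2 change was above 0 in 7 of 7 members, against 50.7% of all genes. The median change over the members was 0.54, against 0.00 over all genes.

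At ZT3 the members did not share a direction. Egr1 ranged from 7.69 to 66.6 in ZT3 RUN with a median of 18.6, against 12.7 to 168 in ZT3 SED with a median of 65.9. Every RUN library lay below the SED mean, but ZT3_SED_1 at 23.1, ZT3_SED_3 at 12.7 and ZT3_SED_4 at 50.3 lay within the RUN range. The log2 change of Egr1 was -1.44 ± 0.52, a 95% interval from -2.52 to -0.36 (adjusted p = 0.989, limma). Egr2 ranged from 3.46 to 7.82 in ZT3 RUN with a median of 6.77, against 1.61 to 53.0 in ZT3 SED with a median of 17.1. Here the SED libraries fell on both sides of a narrow RUN group, with 4 above all RUN libraries, 1 within the RUN range and 1 below it (log2 change -0.95 ± 0.50). Egr3 ranged from 0.279 to 8.30 in ZT3 RUN with a median of 1.72, against 1.78 to 16.9 in ZT3 SED with a median of 4.82. In Egr3 5 of 6 RUN libraries lay below the SED mean, and the log2 change was -1.13 ± 0.54.

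Ier2 ranged from 6.49 to 18.6 in ZT3 RUN with a median of 9.30, against 7.46 to 34.3 in ZT3 SED with a median of 15.4 (log2 change -0.51 ± 0.30). Ier3 lay between 1.56 and 2.57 in ZT3 RUN, against 2.09 to 4.22 in ZT3 SED (log2 change -0.31 ± 0.19). Zfp36 ranged from 39.6 to 99.2 in ZT3 RUN with a median of 70.4, against 41.3 to 101 in ZT3 SED with a median of 59.9, and the groups covered almost the same span. Its log2 change was 0.13 ± 0.23, with a 95% interval from -0.34 to 0.61. Myc ranged from 6.54 to 21.8 in ZT3 RUN with a median of 14.7, against 10.1 to 14.6 in ZT3 SED with a median of 11.1. The RUN libraries of Myc lay on both sides of a narrow SED group, and its log2 change was 0.18 ± 0.24.

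At ZT3 0 of the 7 members passed the adjusted threshold in limma, edgeR or DESeq2, against 0.0% of all genes in each tool. At an unadjusted p under 0.05 the limma count was 2 of 7, Egr1 and Egr3, against 2.27% of all genes. The change was above 0 in 2 of 7 members, against 51.8% of all genes, and the median over the members was -0.51. Within the runs of title numbers the Egr1 change was -2.60, -1.59 and -0.13, the Egr3 change was -1.39, -1.37 and -0.63, and the Egr2 change was -1.90, -1.15 and 0.21. So the Egr2 change had both signs among the runs. At ZT3 the change was above 0 in 20 of 20 lymphocyte markers (median 0.88). It was below 0 in 16 of 16 skeletal muscle (median -0.42) and 9 of 10 adipocyte markers. It was below 0 in 7 of 10 fibroblast, 7 of 10 endothelial and 9 of 14 macrophage markers. It was above 0 in 9 of 9 Schwann cell, 5 of 7 smooth muscle and 5 of 5 epithelial markers. Of neutrophil and mast cell markers 7 of 10 were above 0. Only lymphocyte and muscle scores were tested as terms.

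**Figure D2:**
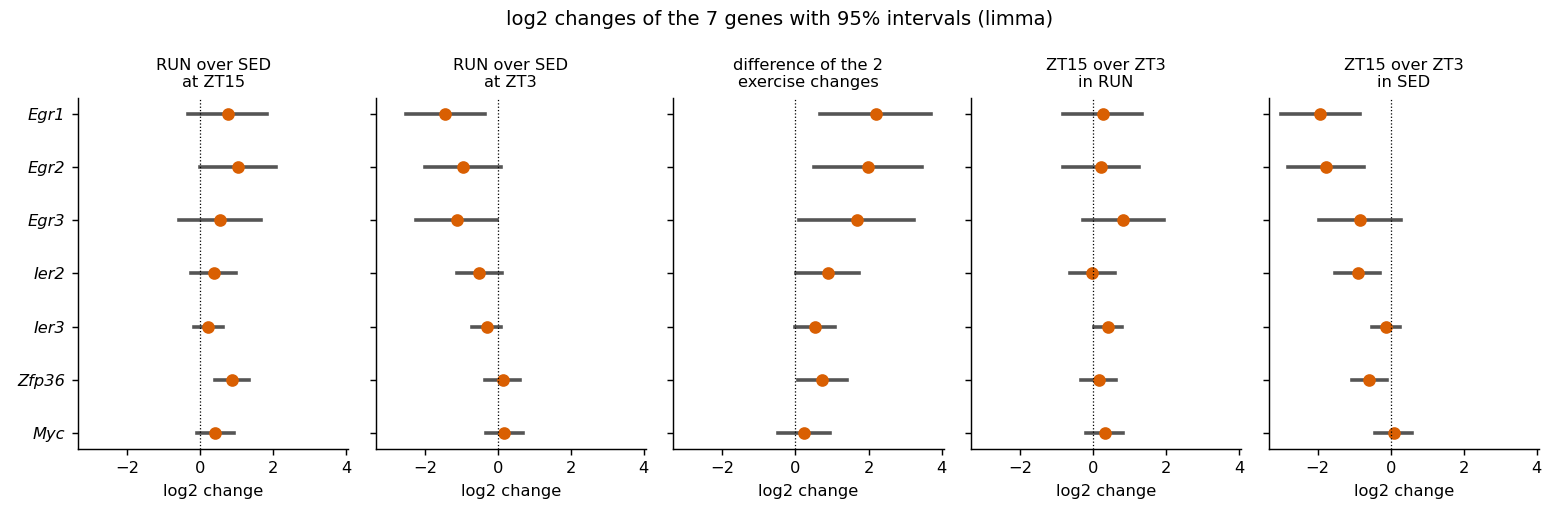
log2 changes of the 7 genes (points) with 95% intervals from limma (lines), on 1 horizontal scale for the 5 comparisons. The intervals of the 3 Egr genes are the widest, and for Egr1 the points lie at 0.75 for RUN over SED at ZT15 and at -1.44 for RUN over SED at ZT3.

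The difference between the exercise changes at ZT15 and ZT3 was tested as an interaction. It was 2.19 ± 0.74 for Egr1 and 1.99 ± 0.71 for Egr2 on the log2 scale (adjusted p = 0.583 for both, limma). It was 1.67 ± 0.76 for Egr3, 0.88 ± 0.42 for Ier2, 0.74 ± 0.33 for Zfp36, 0.53 ± 0.27 for Ier3 and 0.23 ± 0.34 for Myc. In limma 0 of 7 members and 0.0% of all genes passed. At an unadjusted p under 0.05 the count was 5 of 7 members, all except Ier3 and Myc, against 7.84% of all genes. The interaction was above 0 in 7 of 7 members, against 50.7% of all genes. In the same contrast it was below 0 in 20 of 20 lymphocyte markers (median -2.48) and above 0 in 16 of 16 skeletal muscle markers (median 1.23). With scores of these markers as terms the interaction was 2.16 ± 0.81 for Egr1, 2.30 ± 0.77 for Egr2 and 2.58 ± 0.63 for Egr3 (adjusted p = 0.983 for each, limma). DESeq2 called Egr1 (2.50, adjusted p = 0.0430) and Egr2 (3.02, adjusted p = 0.00469), in a comparison where it called 0.173% of genes higher, and edgeR called neither (adjusted p = 0.238 and 0.173).

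Between times, Egr1 and Egr2 had larger changes in SED than in RUN. The test of that difference is the interaction above, which did not pass in limma. At ZT15 against ZT3 in SED, the log2 change was -1.93 ± 0.52 for Egr1 (adjusted p = 0.0707, limma) and -1.78 ± 0.50 for Egr2 (adjusted p = 0.0856, limma). In both genes all 6 ZT15 SED libraries lay below the ZT3 SED mean, and the lowest ZT3 SED libraries lay within the ZT15 SED range or below it. edgeR called both, with -2.40 for Egr1 (adjusted p = 0.0342) and -2.68 for Egr2 (adjusted p = 0.0151), in a comparison where it called 0.598% of genes lower. DESeq2 called Egr1 (adjusted p = 0.000523), Egr2 (adjusted p = 4.35e-05) and Ier2 (-1.12, adjusted p = 0.0222), where it called 1.65% of genes lower. In limma the change of Ier2 was -0.90 ± 0.30 (adjusted p = 0.162) and that of Zfp36 -0.59 ± 0.23 (adjusted p = 0.269). Egr3 was at -0.84 ± 0.54, Ier3 at -0.13 ± 0.19 and Myc at 0.08 ± 0.24.

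In limma 0 of 7 members passed between ZT15 and ZT3 in SED, against 1.18% of all genes, and 4 of 7 had an unadjusted p under 0.05, against 12.1% of all genes. Within the runs of title numbers Egr1, Egr2 and Ier2 were below 0 in 3 of 3 runs. The marker lists below stand beside these changes. The summed value of the 16 skeletal muscle markers, of which 0 passed, was 85.5 to 46324 in ZT15 SED and 115 to 20078 in ZT3 SED. That of the 10 fibroblast and preadipocyte markers was 3192 to 9508 in ZT15 SED and 8960 to 14431 in ZT3 SED, with 1 of the 10 called lower at ZT15. All 20 lymphocyte markers had a change above 0 (median 1.47), and 0 of them passed. The change was below 0 in 16 of 16 skeletal muscle markers (median -1.58) and 10 of 10 fibroblast and preadipocyte markers (median -0.50). It was below 0 in 12 of 14 macrophage and dendritic cell markers (median -0.51), of which 0 passed. With lymphocyte and muscle scores as terms, limma called Egr2 (-1.96, adjusted p = 0.0432) and Ier2 (-1.14, adjusted p = 0.0294), and Egr1 was at -1.92 (adjusted p = 0.0626). The part of the fibroblast and macrophage markers was not tested.

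Between ZT15 and ZT3 in RUN the members were close. Ier3 had the smallest p, with a log2 change of 0.41 ± 0.19 (adjusted p = 0.221, limma), and 4 of its 6 ZT15 RUN libraries lay above the ZT3 RUN mean. Egr3 was at 0.83 ± 0.54, Myc at 0.32 ± 0.24, Egr1 at 0.26 ± 0.52, Egr2 at 0.21 ± 0.50, Zfp36 at 0.15 ± 0.23 and Ier2 at -0.03 ± 0.30. In limma 0 of 7 members passed, against 4.19% of all genes, and 1 of 7 had an unadjusted p under 0.05, against 20.8% of all genes. The 95% intervals do not show that the levels were alike, since that of Egr1 ran from -0.81 to 1.34.

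The members varied widely among libraries. Egr3 varied 60.8-fold over the 24 libraries, Egr2 33.0-fold and Egr1 21.8-fold, against 7.27-fold for Ier2, 4.54-fold for Myc, 3.50-fold for Ier3 and 3.24-fold for Zfp36. By the SD of log2(value + 1), the widest group was ZT3 SED for all 3 Egr genes, Ier2 and Zfp36. By fold range, ZT3 RUN was wider for Egr3 (29.8-fold, against 9.52-fold in ZT3 SED) and for Zfp36 (2.51-fold, against 2.43-fold in ZT3 SED). In ZT3 SED the SD of log2(value + 1) was 1.65 for Egr2 and 1.33 for Egr1. Among genes of like level, 98.3% had a smaller SD than Egr2 in ZT3 SED and 99.3% a smaller SD than Egr1. In that group 97.5% of like genes varied less than Ier2, 97.0% less than Egr3 and 97.0% less than Zfp36. Myc and Ier3 did not stand out there, with 70.9% and 63.7%.

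A few libraries carried the high values. ZT3_SED_6 held the highest value of all 24 libraries in Egr1, Egr2, Egr3 and Ier2, with 168 for Egr1 and 53.0 for Egr2, and the second highest in Zfp36. ZT3_SED_2 came next in Egr1 with 88.7 and in Egr2 with 30.1. ZT15_RUN_5 held the highest value in Ier3, Zfp36 and Myc, with 5.47, 101 and 29.7. It was the lowest of the ZT15 RUN libraries in Egr1, with 13.8. The library with the second highest Ier3 value was ZT15_RUN_1, with 5.34, which also led the ZT15 RUN group in Egr1 and Egr2.

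**Figure D3:**
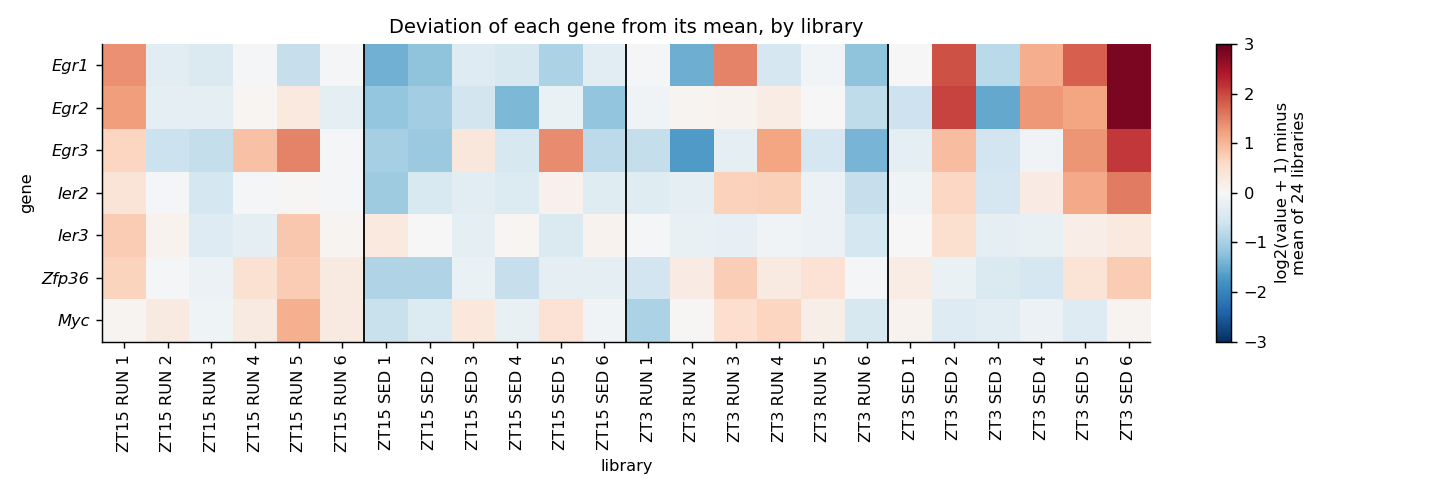
Deviation of log2(value + 1) from the mean of the 24 libraries for each gene (down the page) in each library (across), with lines between the groups ZT15 RUN, ZT15 SED, ZT3 RUN and ZT3 SED. Red is above the mean and blue below. ZT3_SED_6 is above the mean in every gene, and ZT3_SED_3, in the same group, is below it in every gene.

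The members' likeness across the 24 libraries was described with group means removed. Pearson's r of log2(value + 1) was 0.81 between Egr3 and Ier2, 0.78 between Egr1 and Ier2, 0.78 between Egr2 and Ier2, 0.75 between Egr1 and Egr2, 0.65 between Egr2 and Egr3, and 0.51 between Egr1 and Egr3. It was 0.70 between Zfp36 and Myc, 0.69 between Zfp36 and Ier2, 0.64 between Zfp36 and Egr3, 0.59 between Egr3 and Myc and 0.51 between Ier2 and Myc. Myc was nearly unrelated to Egr1 (0.12), and Ier3 to Myc (0.05). These points share libraries, depth and tissue makeup, and they are given as descriptions.

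Among 10932 genes with a mean value of 5 or more, the genes most like each member on the same measure were as follows. For Egr1 they were Fos (0.85) and Fosb (0.79), subunits of the AP-1 factor, and Ccn1 (0.71), a secreted matrix protein. Fos reached 156 in ZT3_SED_6 and 126 in ZT3_SED_5. Arc, best known from synapses, was nearest to Egr2 (0.74), Egr3 (0.88) and Ier2 (0.72). The next were Dusp6 (0.62), an ERK phosphatase, and Clec7a (0.61), a receptor for fungal glucans, for Egr2. Tgfb1 (0.81), a secreted growth factor, was also among the 3 genes nearest to Egr3. For Ier2 the next were Junb (0.70) and Sh3bp5 (0.68). Ier3 was nearest to Bhlhe41 (0.66), a clock repressor, then Ippk (0.63) and Dusp6 (0.60). Zfp36 was nearest to Tnfrsf10b (0.80), a death receptor, then Thbs1 (0.79) and Btg2 (0.78), and Myc to Ing5 (0.90), Btg1 (0.89) and Cep120 (0.86).

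Among the members, lymph node content moved most with Egr3 and Myc. In the 3 libraries rich in Cd79a, Egr3 was at 8.30 in ZT3_RUN_4, the highest of its group, and at 10.1 in ZT15_SED_5 and 4.20 in ZT15_SED_3, the 2 highest of theirs. Myc was at 21.8 in ZT3_RUN_4, at 18.8 in ZT15_SED_5 and at 17.1 in ZT15_SED_3, likewise the highest of their groups. In the same order of libraries, Egr2 was at 7.82, 5.57 and 4.20 and Ier2 at 18.6, 12.1 and 8.70. These too were the highest of their groups. The part of the 3 libraries in the results was not tested beyond the values without them. With group means removed, r between the lymphocyte score and the member was 0.62 for Egr3, 0.51 for Myc and 0.39 for Ier2. It was 0.23 for Egr2, -0.02 for Egr1 and -0.20 for Ier3. For Egr3 r was also -0.64 with the fibroblast score. For Zfp36 r was 0.48 with the endothelial score, -0.42 with the fibroblast score and 0.16 with the lymphocyte score. The part of the endothelial and fibroblast scores was not tested. Without these 3 libraries the ZT15 SED mean of Egr3 was 1.32 ± 0.459 (SD, n = 4) in place of 3.26 ± 3.54 (SD, n = 6). The limma change of Egr3 without them was 1.12 ± 0.49 at ZT15 (adjusted p = 0.367) and -1.48 ± 0.46 at ZT3 (adjusted p = 1.00). The change of Myc without them was 0.66 ± 0.24 at ZT15 (adjusted p = 0.242), against 0.41 with all libraries. Zfp36 was at 1.02 ± 0.26 at ZT15 without them (adjusted p = 0.0957).

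**Figure D4:**
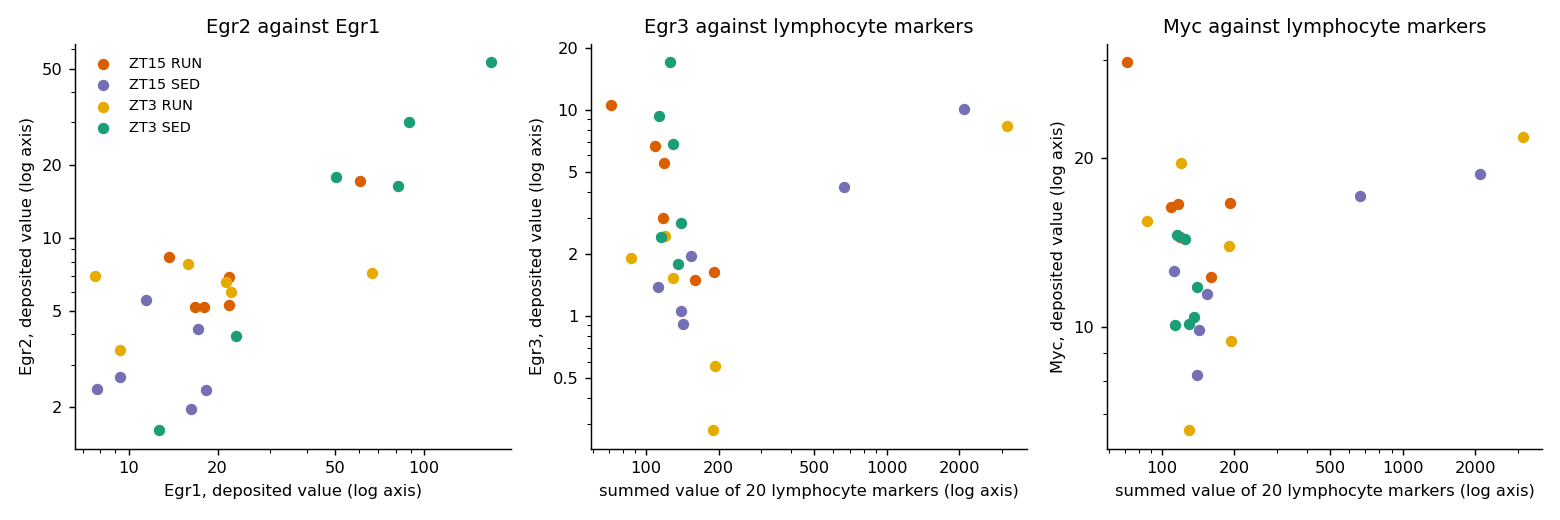
Each point is 1 of the 24 libraries, coloured by group, on log axes of deposited values. The left panel plots Egr2 against Egr1, the middle panel Egr3 and the right panel Myc against the summed value of 20 lymphocyte markers. In the middle and right panels 3 points with sums from 663 to 3150 lie apart from the rest, whose sums reach 194.

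The 37 other immediate early genes outside the AP-1 family were set beside the members. At ZT15, 4 of 37 rose in RUN against SED in limma, against 0.481% of all genes that were called higher, and 0 fell. Gadd45g, a stress-induced growth arrest gene, averaged 52.5 ± 23.8 in ZT15 RUN and 14.7 ± 7.61 in ZT15 SED (SD, n = 6 each), a log2 change of 1.77 ± 0.35 (adjusted p = 0.0188, limma). Sik1, a kinase that restrains CREB coactivators, rose by 1.63 ± 0.30 (adjusted p = 0.0170, limma). Maff, a small MAF factor, rose by 1.35 ± 0.29 (adjusted p = 0.0326, limma), and Dusp1, a phosphatase of MAP kinases, rose by 1.31 ± 0.24 (adjusted p = 0.0169, limma). The change was above 0 in 32 of 37, against 50.7% of all genes, with a median of 0.71, and the members' median was 0.54. At ZT3 0 of 37 passed, and the change was above 0 in 25 of 37, against 51.8% of all genes. The median was 0.19, where that of the members was -0.51.

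**Figure D5:**
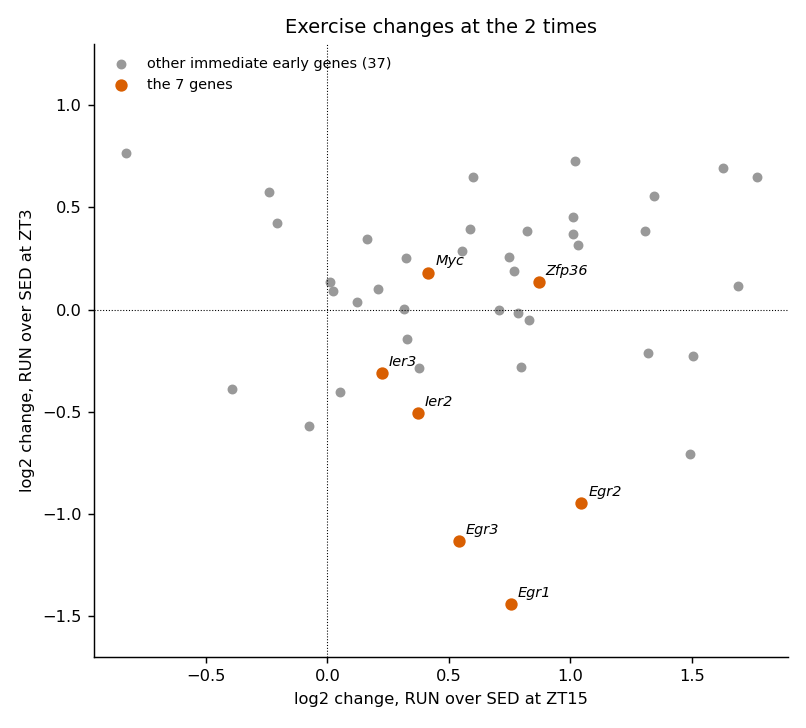
log2 change of RUN over SED at ZT15 (horizontal) and at ZT3 (vertical) for the 7 genes and for 37 other immediate early genes, 1 point per gene. The 3 Egr genes lie lowest on the vertical axis, from -0.95 to -1.44, and the lowest of the other genes is Arc at -0.71.

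In SED, 2 of the 37 were called lower at ZT15 than at ZT3 and 0 higher, against 0.561% of all genes called lower in limma. The log2 change at ZT15 against ZT3 was -1.54 ± 0.36 for Ccn1 (adjusted p = 0.0337, limma) and -0.93 ± 0.20 for Pim3, a survival kinase (adjusted p = 0.0164, limma). The change was below 0 in 28 of 37 genes and above 0 in 9, where 54.0% of all genes were above 0. In RUN, 1 of 37 was called higher at ZT15 than at ZT3, against 2.56% of all genes. This was Nfil3, a clock output repressor, with a log2 change of 1.32 ± 0.34 (adjusted p = 0.0283, limma).

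Among 19 genes of the ERK, ternary complex, SRF and CREB inputs, 1 passed at ZT15 and was higher in RUN, against 0.481% of all genes called higher. Crem, a cAMP-responsive regulator, averaged 45.5 ± 11.9 in ZT15 RUN and 18.5 ± 1.97 in ZT15 SED (SD, n = 6 each), a rise of 1.21 ± 0.22 on the log2 scale (adjusted p = 0.0169, limma). In the other comparisons 0 of 19 passed. Of the other EGR family and cofactors, 5 of 7 were measured, and Egr4 and Wt1 were not listed. In all 5 comparisons 0 of 5 passed. Srf, the factor that binds CArG boxes, had a log2 change of 0.39 ± 0.18 at ZT15 (adjusted p = 0.369, limma), and Nab2, a corepressor of EGR proteins, one of -0.20 ± 0.17 at ZT15 against ZT3 in SED.

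Of 19 measured genes known as EGR targets, 1 rose at ZT15, Dusp1 as given above, against 0.481% of all genes called higher, and 0 passed at ZT3. F3, tissue factor, was higher at ZT15 than at ZT3 in RUN by 0.76 ± 0.15 (adjusted p = 0.00560, limma), where 2.56% of all genes were called higher. Mmp14, a membrane metalloproteinase, was lower at ZT15 than at ZT3 in SED, with a log2 change of -0.92 ± 0.19 (adjusted p = 0.0118, limma), where 0.561% of all genes were called lower. It averaged 45.7 ± 11.9 in ZT15 SED and 87.0 ± 20.1 in ZT3 SED (SD, n = 6 each). The list counts Egr1 itself.

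Of 17 measured relatives and decay partners of ZFP36, 0 passed with exercise at either time. Elavl1, which encodes the stabilizing AU-rich binder HuR, was higher at ZT15 than at ZT3 by 0.25 ± 0.05 in RUN (adjusted p = 0.00715, limma) and by 0.22 ± 0.05 in SED (adjusted p = 0.0395, limma). Of all genes, 2.56% were called higher in RUN and 0.616% in SED. Dcp2, a decapping enzyme, was lower at ZT15 than at ZT3 in RUN, with a log2 change of -0.34 ± 0.09 (adjusted p = 0.0378, limma), where 1.63% of all genes were called lower. Of 18 measured AU-rich mRNAs known as ZFP36 targets, 1 rose at ZT15, again Dusp1, against 0.481% of all genes called higher. The change was above 0 in 16 of 18, against 50.7% of all genes, with a median of 0.40. Fos was lower at ZT15 than at ZT3 in SED, with a log2 change of -2.45 ± 0.51 (adjusted p = 0.0132, limma), where 0.561% of all genes were called lower. In that comparison 15 of 18 changes were below 0 and 3 above, where 54.0% of all genes were above 0.

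Of 15 measured partners and antagonists of MYC, 0 passed in any of the 5 comparisons, and Max, its obligate partner, had a log2 change of 0.17 ± 0.08 at ZT3 (adjusted p = 0.989, limma). Of 23 genes known as MYC targets, 0 passed with exercise at either time. In RUN 3 of 23 were called higher at ZT15 than at ZT3, against 2.56% of all genes, which were Nolc1 (0.38 ± 0.10), a nucleolar assembly factor, Srm (0.36 ± 0.09), spermidine synthase, and Pus7 (0.33 ± 0.05), an RNA-modifying enzyme. The largest adjusted p of these was 0.0342 in limma, for Nolc1. In SED, where 0.616% of all genes were called higher, Srm (0.46 ± 0.09) and Pus7 (0.24 ± 0.05) were higher at ZT15 than at ZT3, with adjusted p of 0.00542 and 0.0245 in limma. Myc itself did not pass in either of these comparisons.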

How the data were processed

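RNA was sequenced after ribosomal RNA removal with a stranded kit, per the labels' protocols. The submitters' processing notes list limma 3.48.3, Subread 1.6.2, featureCounts and STAR, without role or order. For the authors' counting, no source used here gives a build, an annotation or a strand setting, so coordinates are those of the GENCODE M21 and RefSeq annotations of GRCm38. The deposited table holds 1 signal value per gene and library, scaled by the authors. Every value (100%) was a whole multiple of that of 1 read within 0.01 read, and the scaling equalled TMM. The table thus holds normalized values, as the design assumed, and not raw counts.

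The scale was log2(value + 1), on which changes of low genes are understated. limma 3.58.1 in R 4.3.3 (group means over 24 libraries, eBayes with trend) was the main test, Benjamini-Hochberg adjusted over all 16233 genes, threshold 0.05. edgeR 4.0.16 (quasi-likelihood, TMM) and DESeq2 1.42.0 (own size factors) were run on the recovered reads, with 121 and 561 genes called at ZT15 against 104 in limma. The code was tested on simulated data. Over 60 pairs within groups, chi-square per degree of freedom was at least 23.3, so no library repeated another of its group.

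The members, lists and alternatives were chosen with earlier results of these data known. Named genes from each list were the members past the threshold, at most 4, or the 2 of smallest p, of which some are given. The 3 most like genes per member were taken by Pearson's r after group means were removed, and 1 of them is not reported here. Lymphocyte, muscle and other marker scores are mean z scores of their markers. Title numbers run from 1 to 24, and the labels do not say what they mean. Neighbouring numbers did not meet the rule for pairs, which does not show that they are unpaired. Figures were drawn with matplotlib 3.10.9.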

Additional observations from a re-analysis of the deposited data

Results flagged for a closer look

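Some single libraries lay far from the rest of their group, by Dixon's criterion at 95%. The criterion was applied to deposited values and not to log2 values. Of 28 groups of values tested 6 met it, each for its highest library. The 5% rate of the criterion holds for normally distributed values, and the groups share libraries across genes. The count is therefore not set against chance. In ZT15 RUN, Egr1 was at 60.5 and Egr2 at 17.2 in ZT15_RUN_1, with the next libraries at 21.8 and 8.35. In the same group Myc was at 29.7 in ZT15_RUN_5, with the next at 16.6. In ZT3 RUN, Egr1 was at 66.6 in ZT3_RUN_3, with the next at 22.1. Egr3 was at 10.1 in ZT15_SED_5, with the next at 4.20, and at 8.30 in ZT3_RUN_4, with the next at 2.45. These last libraries are rich in Cd79a, at 54.6 and 99.2. ZT3_SED_6, highest in Egr1 with 168, did not meet the criterion because its own group was wide.

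Egr1 and Egr2 had exercise differences of opposite sign at the 2 times. So did Egr3 (0.54 at ZT15 and -1.13 at ZT3), Ier2 (0.37 and -0.51) and Ier3 (0.22 and -0.31). Zfp36 and Myc did not. In Egr1 and Egr2, all 6 ZT15 RUN libraries lay above the ZT15 SED mean, and all 6 ZT3 RUN libraries lay below the ZT3 SED mean. The interaction was 2.19 for Egr1 and 1.99 for Egr2 on the log2 scale, and it did not pass in limma (adjusted p = 0.583). DESeq2 called both, with 239 genes called in all and 0.173% of genes called higher. edgeR called neither. Within the runs of title numbers the Egr2 change at ZT3 was -1.90, -1.15 and 0.21.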

How the results depend on the processing

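Of 1204 recomputed values of the 7 genes in the 5 comparisons, 1175 kept direction and side of the threshold, 16 passed only in the alternative and 13 reversed. These counts do not measure robustness. As 0 of the 35 main results passed, a call could not be lost. Leaving out a library of a group not compared, or the trend, cannot alter a log2 change, so no reversal was possible there. Number of genes called, exercise at ZT15 (104, 78 higher): 19 with a replicate block of neighbouring title numbers, 561 in DESeq2 (329 higher), 22 without the Cd79a-rich libraries, 72 after quantile normalization (67 higher), and 16 (without ZT15_RUN_4) to 293 (without ZT3_RUN_4) with 1 library left out. The interaction count, 0 in limma, was 239 in DESeq2. ZT15 against ZT3 in RUN (680) gave 426 after quantile normalization, 109 with only the groups compared, 1068 with lymphocyte and muscle scores, 1590 in DESeq2 and 330 to 1004 with 1 library left out. In SED (191) it gave 287 with title-number runs, 569 with those scores, 548 in DESeq2 and 130 to 388 with 1 left out. The cause was not tested.

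Zfp36 at ZT15 also passed without ZT15_RUN_3 (adjusted p = 0.0388, limma) and lay between 0.0388 and 0.221 with 1 library left out. In SED between times Egr1 passed without ZT3_RUN_3 (0.0455) or ZT3_SED_3 (0.0174) and Egr2 without ZT3_SED_1 (0.0433) or ZT3_SED_3 (0.00760), all limma adjusted p. ZT3_RUN_3 is not in the groups compared. Leaving it out kept the Egr1 change at -1.93 and moved only the p-values, through the spread shared by the groups. Reversals were in changes near 0. Ier2 in RUN between times was 0.034 after quantile normalization, 0.059 with the scores, 0.12 without the Cd79a-rich libraries and -0.16 to 0.12 with 1 left out. Egr1 (-0.016 to 0.62) and Egr2 (-0.017 to 0.29) reversed there without ZT15_RUN_1. In SED between times Ier3 was 0.030 without the Cd79a-rich libraries. Myc was -0.14 with the scores, -0.16 without those libraries and -0.027 to 0.19 with 1 left out.

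Of 12 neighbouring pairs, 7 had a correlation of deviations over 0.1 (range -0.51 to 0.85), and 8 of 24 libraries correlated best with their own neighbour. The main test did not use the numbers as pairs, and these values do not settle whether they are pairs. The block could not be fitted between times. The lowest read numbers in a library were 10 for Egr3, 47 for Egr2 and 50 for Ier3, against 139 or more for the others.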
